A study of Mus musculus with 4 samples.

Results

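The genes described here are the 63 mouse zinc-finger genes numbered from Zfp900 to Zfp999, taken by their symbols from a testis RNA-seq table of 49492 gene rows. In GENCODE, 62 of them are protein coding and Zfp939 is a transcribed unprocessed pseudogene. They lie on 12 chromosomes, and 42 of them sit in 5 physical clusters of at least 3 members whose starts follow each other within 1 Mb. The exons of 7 members (Zfp941, Zfp953, Zfp956, Zfp961, Zfp963, Zfp974 and Zfp984) overlap another annotated gene, and their counts may include its reads.

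Most genes named this way encode KRAB zinc-finger proteins, a family that has multiplied by local duplication, so that close copies often stand side by side. The zinc fingers bind DNA, frequently within retrotransposons, and the KRAB domain recruits Trim28 (KAP1), which brings histone H3 lysine 9 methylation, HP1 proteins and DNA methylation to the bound site. In the germ line this machinery is known for silencing retrotransposons, and the arrays of copies differ widely between species and between mouse strains.

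RNA was sequenced from whole testis of male C57BL/6J mice, in 4 libraries. By the labels all mice were given LPS (lipopolysaccharide, an endotoxin of bacteria), and the groups were a knockdown of Spry1 by a hairpin (shSpry1, 2 libraries) and a control hairpin (shControl, 2 libraries, genotype given as WT). Not given in the sources used here are the age of the mice, the vector, the cells it reached and whether replicates were separate animals. The p-values therefore reflect the spread between these particular libraries, which may be technical. The headings of the columns with counts are LPS or NC plus a number, and the NC pair was taken as control and the LPS pair as knockdown. Since all 4 titles carry LPS, this rests on the names alone, and a contrast of LPS with no LPS is another possible reading. The text keeps to the headings, LPS columns and NC columns, and gives log2 fold changes as LPS over NC.

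Spry1, the targeted gene, which dampens growth factor receptor signalling, was read 26 and 17 times in the LPS columns and 45 and 41 times in the NC columns, a log2 fold change of -0.82 ± 0.28 (SE, adjusted p = 0.0212, edgeR). Its call was lost under 4 of 9 alternatives, with DESeq2 (adjusted p = 0.300) and with edgeR without LPS replicate 2 (0.183), without NC replicate 1 (0.0952) or without NC replicate 2 (0.0653). Total counts were between 17612342 and 22451132 per library. Over 20855 genes tested with edgeR's quasi-likelihood test, 3169 were called higher and 3394 lower at an adjusted p under 0.05, and with the library size as the only scaling the split was 4207 higher and 2579 lower. Marker genes of testis cell types were also called, beside 31.5% of all genes tested (15.2% higher and 16.3% lower), and some lists were called in both directions. Called higher and lower were 4 and 0 of 8 tested spermatogonial markers, 2 and 2 of 9 for spermatocytes, 1 and 5 of 8 for round spermatids, and 0 and 6 of 8 for elongating spermatids. For somatic cells the counts were 4 and 1 of 8 for Sertoli cells, 1 and 5 of 8 for Leydig cells, 4 and 0 of 5 for peritubular myoid cells, 2 and 0 of 4 for endothelial cells, 4 and 3 of 8 for macrophages, and 1 and 1 of 4 for lymphocytes. The summed level of the elongating spermatid markers was 16370 and 16024 CPM (counts scaled to library size) in the LPS columns and 23052 and 22201 CPM in the NC columns, and that of the Leydig markers 452 and 522 CPM against 866 and 906 CPM. The spermatogonial markers summed to 131 and 141 CPM against 99.5 and 108 CPM, and the macrophage markers to 63.1 and 67.4 CPM against 53.0 and 57.7 CPM. None of the marker genes of these 10 lists was at 0 in all libraries. In RNA from whole testis, fewer cells of a type and less RNA per cell cannot be told apart, and the part these shifts play in the results below was not tested.

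Few of the numbered genes differed between the groups by the test. Of the 63 members, 50 passed the filter on low counts and were tested, and 13 were not tested. Only 6 of the 50 (12%) were called, 4 higher and 2 lower, beside 31.5% of all genes tested (15.2% higher and 16.3% lower). The calls without any filter on low counts were again 4 higher and 2 lower among the 63, beside 18.7% of all genes (9.22% higher and 9.52% lower). DESeq2 called 3 members higher and 0 lower, beside 14.3% of all genes (6.31% higher and 8.04% lower). At an unadjusted p under 0.05 in the edgeR test, 15 of the 50 passed, beside 40.7% of all genes tested. The members had few reads, with a median count of 45.6 per library over the tested members beside 161.75 over all tested genes. Their median log2 fold change was 0.16, with 35 of 50 positive, beside 0.00 over all genes, and it was 0.02 without LPS replicate 1. The libraries of the groups did not overlap for 26 tested members, 19 with the LPS columns above and 7 with them below. Over all genes tested 64.1% did not overlap, 32.1% above and 32% below. The other 308 genes with a Zfp number, of which 280 were tested, had 52 higher and 31 lower with a median log2 fold change of 0.10, and with library size as the only scaling 70 higher and 25 lower. DESeq2 called 19 and 15 of them.

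**Figure D1:**
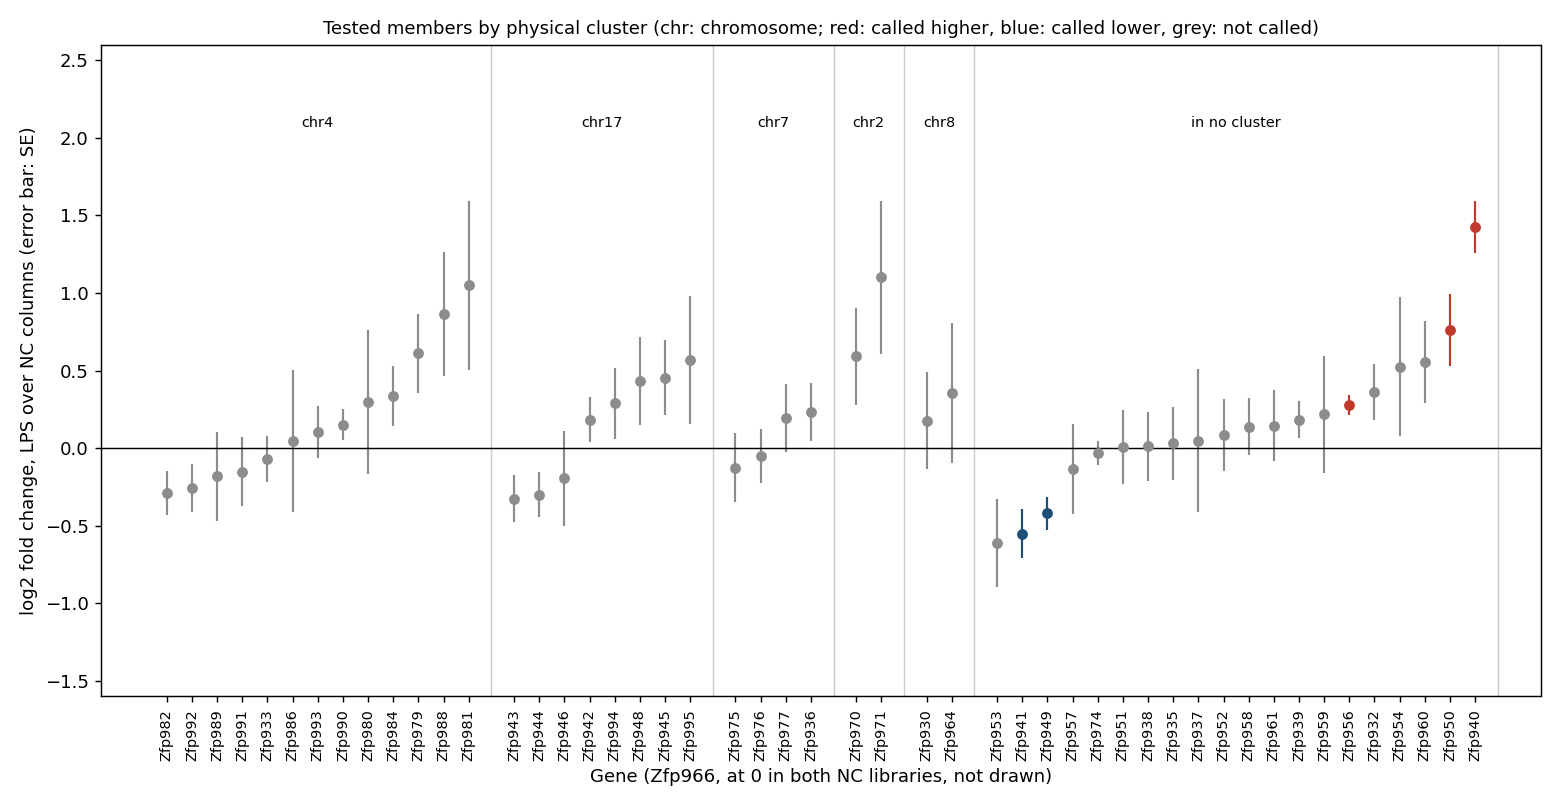
Log2 fold change of the LPS over the NC columns (vertical axis) for the tested members other than Zfp966, grouped by the chromosome of their physical cluster, with members in no cluster at the right. Points are edgeR estimates, bars are their SE, red and blue mark called genes, and the 5 coloured points lie in the group outside clusters. Zfp966, called higher in the chromosome 2 cluster, is not drawn because both its NC libraries are at 0.

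Levels among the members spread widely. Per kb of counted exon length, the median member stood at 0.458 CPM per kb, and Zfp956 led with 21.2 CPM per kb. It alone carried 24.7% of the counts of all members. Next came Zfp974 (4.43 CPM per kb), Zfp982 (4.35), Zfp990 (4.31) and the pseudogene Zfp939 (4.07), whose libraries overlapped each other in level, so that their order is not resolved. Zfp982 is known for a role in mouse embryonic stem cells. At the bottom stood Zfp968, with 0.0169 CPM per kb. No member was at 0 in all libraries, and 58 of the 63 had a count in each of the 4. Summed over members, the level was 270 and 257 CPM in the LPS columns and 245 and 244 CPM in the NC columns. Leaving out Zfp956, the sums overlapped, at 204 and 185 CPM against 189 and 186 CPM.

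**Figure D2:**
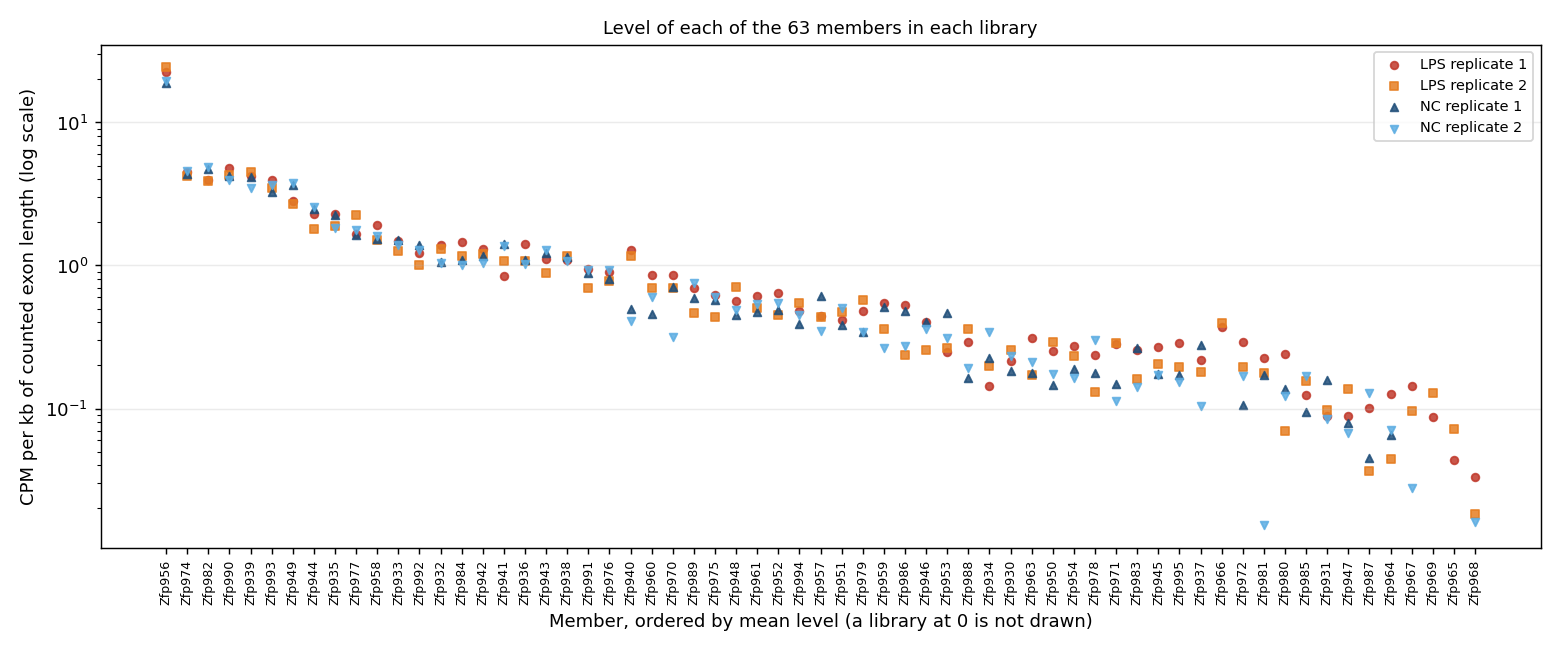
Level of each of the 63 members in each library, as CPM per kb of counted exon length on a log scale, ordered by mean level (a library at 0 is not drawn). Zfp956 stands apart at 21.2 CPM per kb, and the members at the right end, several from the chromosome 2 cluster, lack points for NC libraries.

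The widest difference between the groups was on chromosome 2. Zfp966 (chr2:175918881-175931100, minus strand, mm10) had counts of 22 and 21 in the LPS columns and of 0 and 0 in the NC columns. Both LPS libraries held reads and neither NC library held any. Against a floor of 3 counts over the NC group this is at least 16.2-fold higher, and the gene was called with an adjusted p of 7.08e-08 (edgeR). Its call follows in part from how it came to be tested. With both NC libraries at 0, Zfp966 passed the filter on low counts only through the LPS columns. Of the members, Zfp966 alone showed this pattern at 20 or more summed counts, which in the whole table was shared by 19 rows, 3 of them in the span of the chromosome 2 cluster. The opposite pattern, 0 in both LPS libraries, was also found in 19 rows, with 0 in that span and 0 members.

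Zfp966 belongs to a cluster of 9 members from Zfp968 to Zfp931 that spans 2.70 Mb between the first and the last start. Of these only 3 had enough reads to be tested, and the untested ones are described here because their counts were seen to resemble those of Zfp966. Zfp969 had 3 and 4 counts against 0 and 0, the LPS columns being named first. Zfp965 had 2 and 3 against 0 and 0. Both were thus read only in the LPS columns, though few reads lie behind this. Zfp967 had 5 and 3 against 0 and 1, and Zfp968 had 2 and 1 against 0 and 1. With no filter on low counts these 4 genes did not pass the test, with adjusted p (edgeR) of 0.0640 for Zfp969, 0.170 for Zfp965, 0.141 for Zfp967 and 0.677 for Zfp968.

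The 5 members from Zfp968 to Zfp967, at the proximal end, together held 34 and 32 counts in the LPS columns but 0 and 2 in the NC columns, a ratio of scaled counts of 37.4 (exact binomial 95% interval 9.94 to 315, covering counting error only). Without Zfp966 the other 4 had 12 and 11 against 0 and 2, a ratio of 13.0 (3.22 to 114). The 5 were set apart after their counts had been seen, so these ratios and intervals describe the counts and give no support for a difference. The 4 members at the distal end, Zfp970, Zfp972, Zfp971 and Zfp931, were read in every library. They summed to 58 and 45 counts against 51 and 26, a ratio of 1.51 (1.12 to 2.06). Scaled to library size these sums were 2.94 and 2.52 CPM against 2.32 and 1.27 CPM. The groups did not overlap, but NC replicate 1 lay close to LPS replicate 2. Zfp970 had 37 and 27 counts against 34 and 14, with a log2 fold change of 0.59 ± 0.31 (SE, adjusted p = 0.151, edgeR), and it passed only without NC replicate 1 (adjusted p = 0.0152). Zfp971 had 12 and 11 counts against 7 and 5, with 1.10 ± 0.49 (adjusted p = 0.0856, edgeR). Zfp972 and Zfp931 had at most 8 counts in a library. When starts had to follow each other within 0.5 Mb, the cluster parted into Zfp968 to Zfp966 and Zfp970 to Zfp931, with Zfp967 alone.

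The rows between the members followed the same division along the chromosome. Of 62 other gene rows within the cluster, 12 were tested, of which 6 were called higher and 0 lower (50%, beside 31.5% of all genes). Of these 6, the 5 named next passed the filter on low counts only through the LPS columns. Their calls thus follow in part from how they came to be tested, and the 50% cannot be weighed against the 31.5%. Gm14296 (38 and 33 counts against 0 and 0, at least 26.8-fold higher) and Gm14305 (18 and 17 against 0 and 0, at least 13.2-fold higher) had no read in the NC columns. Gm14306, whose span overlaps that of Gm14305, was read 23 and 21 times against 0 and 1. Its ratio of 49.8 (95% interval 8.48 to 2011) is affected by the same selection. Gm14295 had 47 and 41 against 1 and 3, and Gm14419 had 12 and 13 against 0 and 1. These 5 genes lie between Zfp967 and Zfp970, where all non-member rows summed to 214 and 188 counts against 71 and 66, a ratio of 3.32 (2.73 to 4.06). Between Zfp968 and Zfp967 the non-member rows summed to 94 and 81 against 39 and 31, a ratio of 2.83 (2.13 to 3.79). Between Zfp970 and Zfp931 they summed to 100 and 73 against 115 and 110, a ratio of 0.870 (0.710 to 1.07). The low or absent NC counts thus ran over the proximal and middle stretch of the cluster and not over its distal end. These boundaries were drawn after the counts had been seen, and the difference between stretches was not tested.

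**Figure D3:**
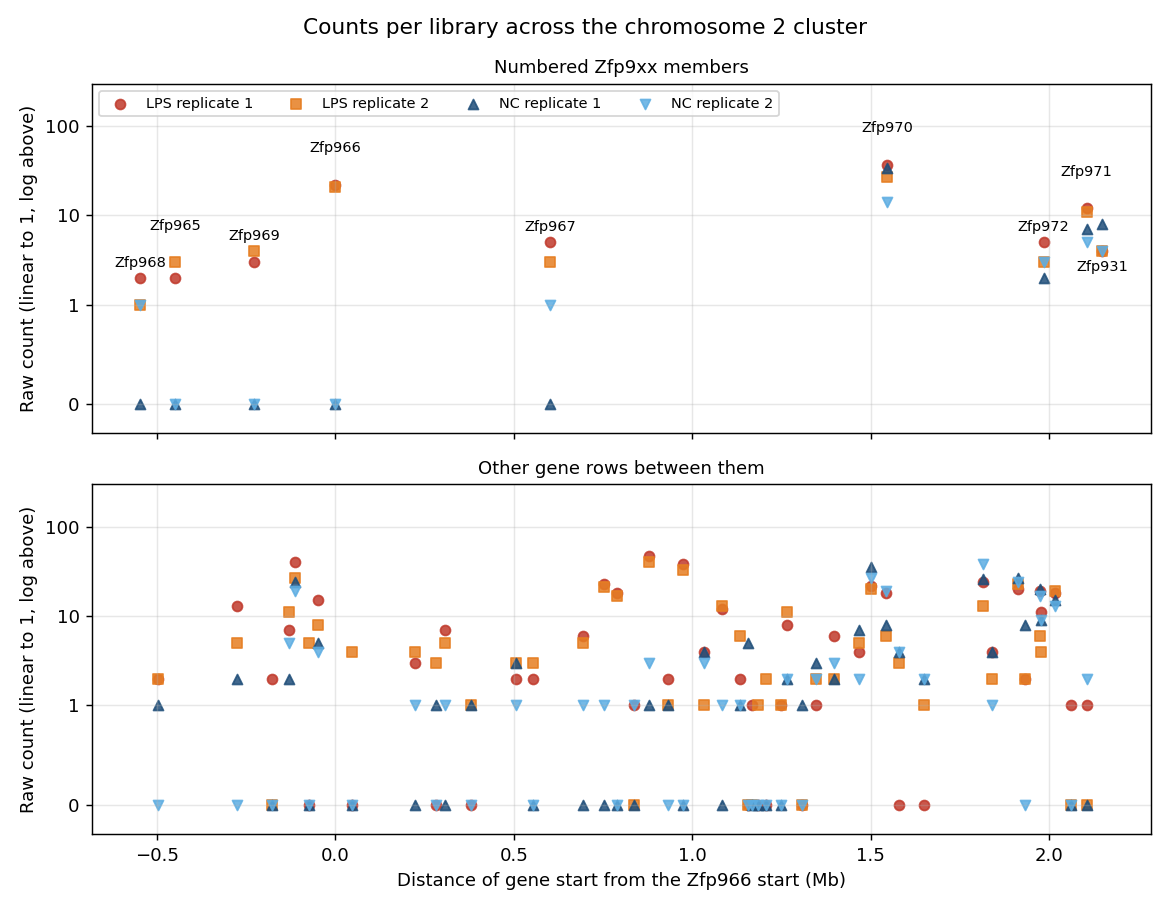
Raw counts in each library (linear to 1, log above) against the distance of each gene start from the Zfp966 start in Mb, for members (upper panel) and for other gene rows with reads (lower panel). From Zfp968 to Zfp967 the NC libraries (triangles) lie at 0 or 1 for every member, whereas from Zfp970 to Zfp931 all 4 libraries hold reads of every member.

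Members of this cluster are close copies, which limits what a count assigned to one of them means. The share of a gene's transcript 50-mers found in no other gene was 10.04% for Zfp966, 3.66% for Zfp965, 4.53% for Zfp968 and 0% for both Zfp967 and Zfp969, and it was 50.3% for Zfp970 and 48.9% for Zfp971. Over all members the median was 80.6%. How reads with several matches were counted is not given in the sources used here, so reads could be assigned to the wrong copy or left out, and values of single genes at the proximal end are uncertain.

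The likeness extends to the promoters. RefSeq windows (GRCm38.p6, 250 bases before to 50 after a start) were found for 53 of the 63 members, among them 8 of the 9 in this cluster. Aligned without gaps, the window of Zfp967 was identical to that of Zfp966 over 300 bases, and that of Zfp968 over 274. Zfp965 differed at 1 of 286 bases, Zfp970 at 2 of 295, Zfp971 at 7 of 286, Zfp931 at 14 of 256 and Zfp972 at 95 of 277. The shared stretch is shown for Zfp966, which had no NC reads, and for Zfp970 and Zfp971, which had reads in all libraries. Capitals mark a CCAAT-type motif, GCCAATCA, in Zfp966, and in the other two they mark bases that differ from Zfp966. The stretches are chr2:175931101-175931336 (minus strand), chr2:177464501-177464736 (plus strand) and chr2:178023034-178023269 (plus strand).
Zfp966: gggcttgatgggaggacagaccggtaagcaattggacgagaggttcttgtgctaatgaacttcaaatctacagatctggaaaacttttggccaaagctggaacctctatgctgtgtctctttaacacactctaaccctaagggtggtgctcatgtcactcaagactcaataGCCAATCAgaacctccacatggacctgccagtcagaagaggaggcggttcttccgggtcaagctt
Zfp970: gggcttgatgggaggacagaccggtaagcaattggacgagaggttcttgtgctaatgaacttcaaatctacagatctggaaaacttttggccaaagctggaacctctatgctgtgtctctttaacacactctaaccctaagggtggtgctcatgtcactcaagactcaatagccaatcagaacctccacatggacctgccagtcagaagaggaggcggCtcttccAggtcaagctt
Zfp971: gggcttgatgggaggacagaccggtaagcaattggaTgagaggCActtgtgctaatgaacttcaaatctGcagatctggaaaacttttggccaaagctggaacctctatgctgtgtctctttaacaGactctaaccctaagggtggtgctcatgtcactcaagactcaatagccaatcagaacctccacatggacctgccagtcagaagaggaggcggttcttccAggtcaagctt
Over these 236 bases Zfp970 differs from Zfp966 at 2 positions and Zfp971 at 6. The motif, chosen after the sequences had been read, was searched on both strands in the 250 bases before each start. It was found for 7 of the 8 cluster members with a window, for 12 of the 45 other members with one (26.7%) and for 1113 of all 27025 genes with a RefSeq window (4.12%). Apart from that of Zfp972, the cluster windows are near copies of each other, so their matches are not separate cases. A match is a description of letters and not evidence of binding.

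Outside the clusters, 21 members stood alone, and 20 of them were tested. Here were 5 of the 6 calls, 3 higher and 2 lower (25%), whereas 1 of 30 tested members in clusters was called (3.33%), beside 31.5% of all genes. DESeq2 called 2 members outside and 1 inside clusters, and edgeR called 4 outside and 3 inside without LPS replicate 1 and likewise without NC replicate 1. The difference between these shares was not tested, and the median count was 46.3 per library in the first set and 43.4 in the second.

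Zfp940 (chr7:29833620-29853669, minus strand) had 154 and 126 counts against 67 and 51. Both LPS libraries lay well above both NC libraries. Its level was 7.43 ± 0.535 CPM (SD, n = 2) against 2.76 ± 0.395 CPM (SD, n = 2), and the log2 fold change was 1.42 ± 0.17 (SE, adjusted p = 2.03e-08, edgeR). Of its sequence, 98.4% of 50-mers were unique. Zfp940 lies among many other zinc-finger genes, and within 0.5 Mb of its start, a window chosen after the values were seen, 14 other numbered Zfp genes were tested. Of these 2 were called higher and 0 lower, beside 31.5% called in either direction among all genes. Zfp383 had 46 and 52 counts against 18 and 21 (adjusted p = 4.55e-05, edgeR), and Zfp14 had 34 and 33 against 25 and 16 (adjusted p = 0.0204, edgeR). The nearest tested, Zfp790, had 50 and 42 counts against 49 and 43 and a log2 fold change of 0.18 ± 0.23, and the median of the 14 was 0.28.

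Zfp956 (chr6:47953390-47965300, plus strand), the member with the most reads, had 1308 and 1284 counts against 1238 and 1180. After scaling, both LPS libraries lay above both NC libraries, at 69.1 ± 3.92 CPM (SD, n = 2) against 56.9 ± 0.881 CPM (SD, n = 2). The log2 fold change was 0.28 ± 0.06 (SE, adjusted p = 8.43e-04, edgeR). The gene overlaps Zfp783, which was also called higher (331 and 295 counts against 301 and 288, 0.27 ± 0.10), and reads of overlapping genes cannot be told apart without the strand setting of the counting. Within 0.5 Mb, 8 other numbered Zfp genes were tested, of which 2 were higher, Zfp212 (0.26 ± 0.08) and Zfp783, and 1 was lower, Zfp786, beside 31.5% called of all genes. Zfp786 had 32 and 31 counts against 86 and 68, and its log2 fold change was -1.11 ± 0.22. Calls there thus went in both directions, as they did over all genes (15.2% higher and 16.3% lower).

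Zfp950 (chr19:61053840-61140840, minus strand) had 53 and 55 counts against 34 and 38, which do not overlap. Its level was 2.88 ± 0.277 CPM (SD, n = 2) against 1.70 ± 0.217 CPM (SD, n = 2), with a log2 fold change of 0.76 ± 0.23 (SE, adjusted p = 0.0106, edgeR). DESeq2 did not call it (adjusted p = 0.219), nor did edgeR without LPS replicate 2 (adjusted p = 0.0763) or without NC replicate 1 (adjusted p = 0.0961).

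The 2 lower members were Zfp949 and Zfp941. Zfp949 (chr9:88548020-88571061, plus strand) had 228 and 199 counts against 328 and 318. Both LPS libraries were below both NC libraries, at 11.4 ± 0.299 CPM (SD, n = 2) against 15.2 ± 0.418 CPM (SD, n = 2), and the log2 fold change was -0.42 ± 0.11 (SE, adjusted p = 0.00216, edgeR). All of its 50-mers were unique to it. Zfp941 (chr7:140807449-140822178, minus strand) had 78 and 90 counts against 146 and 133, or 4.50 ± 0.766 CPM (SD, n = 2) against 6.56 ± 0.108 CPM (SD, n = 2). The libraries did not overlap, and the log2 fold change was -0.55 ± 0.16 (SE, adjusted p = 0.00655, edgeR). Zfp941 overlaps another annotated gene. DESeq2 called neither (adjusted p of 0.0784 for Zfp949 and 0.171 for Zfp941), and the edgeR call of Zfp941 was lost without LPS replicate 1 (adjusted p = 0.126).

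**Figure D4:**
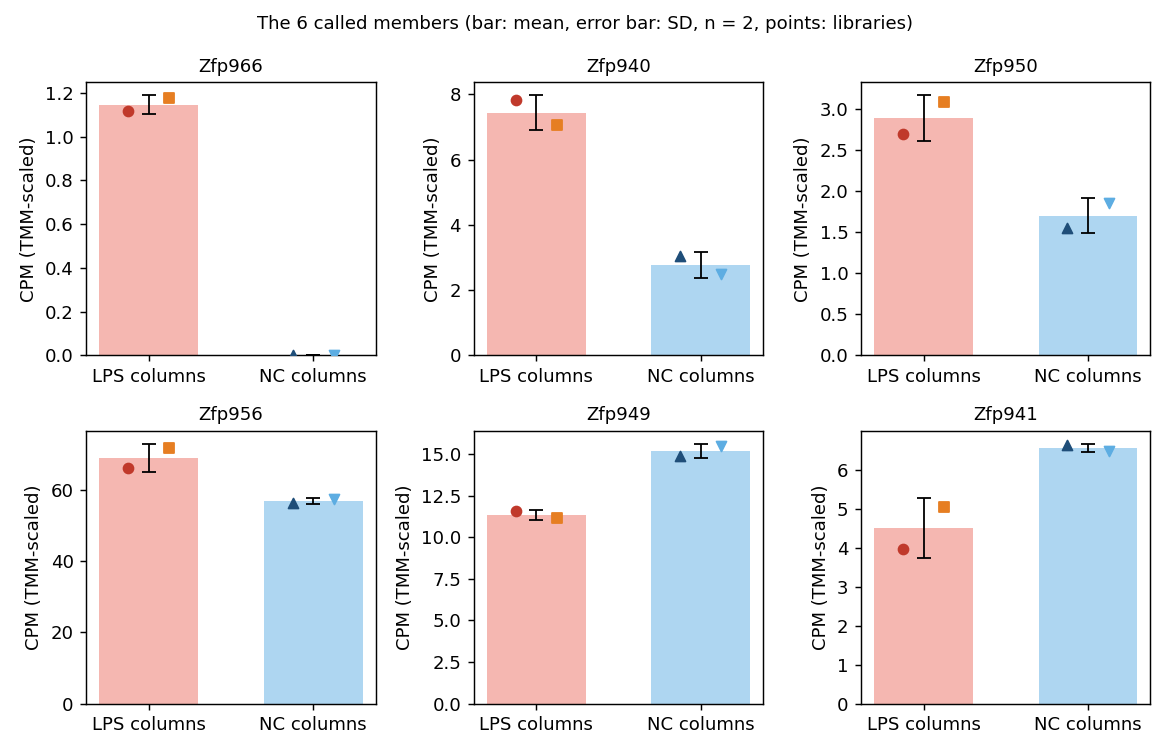
Level in CPM (vertical axis, from 0) of the 6 called members in the LPS and NC columns, with bars for the mean of 2 libraries, error bars for the SD and points for libraries. The points of the groups do not overlap in any panel, and Zfp966 is at 0 in both NC libraries.

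The remaining members outside clusters did not pass the test. Zfp932, known for binding and silencing endogenous retroviruses, had 90 and 76 counts against 76 and 70, with a log2 fold change of 0.36 ± 0.18 (adjusted p = 0.122, edgeR). Zfp960 had 45 and 33 against 27 and 33 (0.55 ± 0.26, adjusted p = 0.109). Zfp953 had 23 and 22 against 48 and 30 (-0.61 ± 0.29, adjusted p = 0.103), and it passed only without NC replicate 2 (adjusted p = 0.0469). Zfp974, the second in level, had 668 and 570 counts against 727 and 703 and a log2 fold change of -0.03 ± 0.08, and its libraries overlapped. The pseudogene Zfp939 had 205 and 198 against 226 and 176 (0.18 ± 0.12, adjusted p = 0.262). Zfp935, of whose 50-mers 0% were unique, had 48 and 36 against 53 and 40 (0.03 ± 0.23).

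The array on chromosome 4 was the largest, with 16 members from Zfp990 to Zfp933 whose starts span 2.31 Mb. Deletion of this array in mice is known to release some retrotransposons, among them ETn elements. Of the 16, 13 were tested and 0 were called, with the libraries not overlapping for 7 (5 above and 2 below, beside 64.1% of all genes not overlapping), and the median log2 fold change was 0.11, 8 of 13 being positive. Zfp990, the most abundant per kb there, together with Zfp982, had 330 and 268 counts against 325 and 284 (0.15 ± 0.10). Zfp982 had 116 and 103 against 155 and 148, and its LPS libraries were below its NC libraries (-0.29 ± 0.14, adjusted p = 0.118, edgeR). Zfp992 had 109 and 82 against 139 and 119 (-0.26 ± 0.15). Zfp979, with 39 and 42 against 31 and 29, was nearest to a call (0.61 ± 0.26, adjusted p = 0.0667, edgeR), and it passed with library size as the only scaling (adjusted p = 0.0417). Zfp988 had 16 and 18 against 10 and 11 (0.87 ± 0.40), and Zfp981 had 14 and 10 against 12 and 1 (1.05 ± 0.54). Zfp981 passed without NC replicate 1 (adjusted p = 0.0120), where the comparison rests on the NC library with 1 count. The other tested members of the array, Zfp980, Zfp986, Zfp993, Zfp989, Zfp991, Zfp984 and Zfp933, lay between -0.18 and 0.33 in log2 fold change. Copies are also close here, with a median of 38.8% unique 50-mers (11.0% to 98.2%). Of 72 other gene rows in the span, 33 were tested, and 5 were higher and 0 lower (15.2%, beside 31.5% of all genes).

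On chromosome 17 a cluster of 10 members ran from Zfp948 to Zfp945 over 1.28 Mb. Of these 8 were tested and 0 called, beside 31.5% of all genes, with a median log2 fold change of 0.24. Libraries of the groups did not overlap for 5 members with the LPS columns above and 2 with them below, beside 64.1% of all genes. Zfp943 had 116 and 83 counts against 142 and 140 (-0.33 ± 0.15, adjusted p = 0.0999, edgeR), and Zfp944 had 125 and 90 against 152 and 147 (-0.30 ± 0.15, adjusted p = 0.122). In both the LPS libraries lay below the NC libraries, and without LPS replicate 1 both passed (adjusted p of 0.0326 and 0.0402). Zfp942, which lies directly before Zfp943 on the opposite strand, had 135 and 113 against 134 and 113 (0.18 ± 0.15). Zfp945 had 54 and 37 against 39 and 36 (0.45 ± 0.24), and Zfp948 had 29 and 33 against 26 and 26 (0.43 ± 0.28). Zfp994 (0.29 ± 0.23), Zfp995 (0.57 ± 0.41) and Zfp946 (-0.20 ± 0.31) did not pass either. These copies are further apart in sequence, with a median of 92.2% unique 50-mers.

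The remaining 2 clusters were small. On chromosome 7, Zfp977 (0.19 ± 0.22), Zfp976 (-0.05 ± 0.17), Zfp975 (-0.13 ± 0.22) and Zfp936 (0.23 ± 0.19) were all tested and none was called, beside 31.5% of all genes. The libraries of the groups overlapped for each, whereas for 64.1% of all genes they did not. At an unadjusted p under 0.05 (edgeR) none of these 4 passed either, beside 40.7% of all genes. DESeq2 called none of them, beside 14.3% of all genes. No test compared these shares. On chromosome 8, Zfp930 had 22 and 24 counts against 21 and 25, and Zfp964 had 19 and 6 against 11 and 11. Neither was called, beside 31.5% of all genes. Zfp963 was not tested, with at most 14 counts in a library.

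Transcripts of the genes encoding the partners of KRAB zinc-finger proteins had more reads, with a median count of 1378 per library over 31 genes. All 31 were tested, and 12 were called higher and 4 lower, beside the 31.5% called of all genes, whose median count was lower at 161.75. DESeq2 called 7 higher and 3 lower, edgeR without LPS replicate 2 called 8 and 3, and edgeR without LPS replicate 1 called 12 and 2. Trim28, the scaffold bound by the KRAB domain, had 3318 and 3176 counts against 3927 and 3793, with a log2 fold change of -0.07 ± 0.05 that was not called (adjusted p = 0.356, edgeR). Setdb1, the histone H3 lysine 9 methyltransferase recruited by Trim28, was higher at 53.8 ± 2.21 CPM (SD, n = 2) against 43.1 ± 2.43 CPM (SD, n = 2), a log2 fold change of 0.32 ± 0.07 (adjusted p = 4.48e-04, edgeR). Its partner Atf7ip was not called (-0.02 ± 0.06).

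Among genes of the HUSH silencing complex and its effector, Mphosph8 (0.44 ± 0.05), Fam208a (0.27 ± 0.07) and Morc2a (0.28 ± 0.06) were higher, and Pphln1 (-0.44 ± 0.07) was lower. Of the HP1 proteins, which bind methylated H3 lysine 9, Cbx1 (0.17 ± 0.06) and Cbx5 (0.26 ± 0.06) were higher and Cbx3 (-0.01 ± 0.07) was not called. Of the other H3 lysine 9 methyltransferases, Ehmt1 (0.34 ± 0.10) and Suv39h1 (0.39 ± 0.15) were higher, Suv39h2 (-0.38 ± 0.08), which is known for its testis expression, was lower, and Ehmt2 (-0.02 ± 0.05) was not called. In DNA methylation, Dnmt1 (0.32 ± 0.06) and the cofactor Dnmt3l (0.79 ± 0.28) were higher, while Uhrf1 (-0.23 ± 0.06), which brings Dnmt1 to replicated DNA, was lower. Dnmt3l had 37 and 38 counts against 29 and 20. The call of Suv39h1 was lost under 6 of 9 alternatives, among them leaving out any single library. That of Dnmt3l was lost under 3, which are DESeq2, without LPS replicate 2 and without NC replicate 2, and that of Uhrf1 without LPS replicate 1. Besides Suv39h1, Dnmt3l and Uhrf1, only Mphosph8, Pphln1 and Suv39h2 were followed singly under the alternatives, so the stability of the other calls is not given. Genes of this machinery and of the spermatogenic markers above moved in the same libraries, and whether one accounts for the other was not tested.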

How the data were processed

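RNA-seq of 4 testis libraries was used as the raw counts per gene that the authors deposited. Per the submitters' processing notes the build was mm10 and the tools were STAR 2.5.3a, Trimmomatic 0.36, Subread 1.5.1, featureCounts, DESeq and edgeR 3.12.1. Not given in the sources used here are the annotation release, the strand setting and the treatment of reads with several matches.

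Members were the gene symbols made of Zfp, a 9 and 2 further digits. The members, lists, clusters and columns were chosen with earlier results of these data known. Genes passing filterByExpr of edgeR 4.0.16 (minimum count 10) were scaled by TMM, and the groups were compared with the quasi-likelihood test over all 20855 genes with Benjamini-Hochberg adjustment, calling an adjusted p under 0.05. The SE is the one implied by the F statistic, with 2 residual and 34.0 prior degrees of freedom. CPM uses TMM-scaled library sizes. Folds against a group at 0 use a floor of 3 counts over the group, ratios have exact binomial 95% intervals, and both cover counting error only.

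Depth per library allows a level of 0.134 to 0.170 CPM behind a count of 0. Replicates differed by more than sampling noise (chi-square per degree of freedom of 2.34 for NC and 2.45 for LPS). The script was tested on simulated data. The genes named are every called member, every tested member of the 3 clusters with most tested members, the 5 highest levels, the targeted gene and at most 3 called genes per direction per list, and other members, machinery genes and neighbours were named after their values were seen. Unique 50-mers and gene types come from GENCODE mouse release 21 (GRCm38, which is mm10), in which 55 of the 63 members had the coordinates of the deposited table, and promoters from RefSeq. DESeq2 1.42.0, RLE and library-size scaling, no filter, a replicate block and leaving out each library were tried as alternatives. Where a library was left out, the lone library of its group was assumed to vary like the other group.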

Additional observations from a re-analysis of the deposited data

How the results depend on the processing

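Zfp966, Zfp940 and Zfp956 were called in the same direction under all 9 alternative fits. Zfp949 was lost with DESeq2 (adjusted p = 0.0784), and Zfp941 and Zfp950 as described above. With DESeq2 the members called lower numbered 0, and over all genes 1367 were higher and 1743 lower, and the cause was not tested. Without the 7 members that overlap another gene, 3 were called higher and 1 lower of 44 tested, by construction of that set. Leaving out each library in turn gave 3 to 5 members higher and 2 to 3 lower, and 2255 to 2730 genes higher and 2425 to 2962 lower over all. With the replicate number as a block, 4 members were higher and 2 lower, and over all genes 3376 higher and 3594 lower. Deviations of same-numbered libraries from their group means had a correlation of 0.0155 over 20855 genes. With 2 libraries per group this is a single contrast, which cannot exclude a pairing. The numbers were not taken to pair the samples. Among uncalled members of the 3 clusters with most tested members and of the 5 highest levels, values changed sign in 16 cases. Other uncalled members were not followed in this count. With library size as the only scaling, Zfp976 was at 0.0128 and Zfp974 at 0.0329 in log2 fold change. Leaving out single libraries, the log2 fold change ran from -0.0211 to 0.398 for Zfp977, -0.185 to 0.0269 for Zfp933, -0.397 to 0.0455 for Zfp991, -0.171 to 0.0565 for Zfp976, -0.511 to 0.0670 for Zfp989, -0.411 to 0.0976 for Zfp975, -0.675 to 0.516 for Zfp986, -0.576 to 0.0855 for Zfp946, -0.870 to 0.892 for Zfp980 and -0.0746 to 0.0126 for Zfp974. Clusters numbered 5 at a gap of 1 or 2 Mb and 6 at 0.5 Mb. With few reads per member and 2 libraries per group, changes of moderate size may have gone undetected.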
